A study of Mus musculus with 17 samples.

Results

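The probe sets described here report the messenger RNAs of RNA polymerase II and of the general transcription factors that place it at promoters. They were taken by name: every probe set whose only gene symbol began with Polr2, with Gtf2 or with Taf and a digit, or was Tbp, with Gtf2i and the Gtf2ird genes left out. This gave 32 probe sets for 29 genes, of 12488 probe sets and 8251 singly named genes on the array, and 5 further probe sets with several symbols (4 with Taf9, 1 with Polr2k) were not used. The arrays, 17 Affymetrix MG-U74Av2 in all, covered mouse preimplantation development in 5 groups. Oocytes and 8-cell embryos had 4 arrays each, and 1-cell embryos, 2-cell embryos and blastocysts had 3 each. Total RNA had been amplified by 2 rounds of in vitro transcription for every array, and no group carried a treatment or a mutation in the labels. Strain, oocyte maturity, collection times and the number of embryos per array are not stated in the labels. Nor do they state whether arrays of a stage came from separate collections, so the p-values measure the spread between these arrays, which may be technical.

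RNA polymerase II transcribes all protein-coding genes, and it cannot find a promoter alone. TFIID, made of the TATA-binding protein Tbp and its associated factors (TAFs), recognises the promoter. TFIIA steadies it there, TFIIB bridges it to the polymerase, TFIIF escorts the polymerase, and TFIIE and TFIIH complete the complex and open the DNA. The polymerase subunits Polr2e, Polr2f, Polr2h and Polr2l are shared with RNA polymerases I and III, and Taf1a, Taf1b, Taf1c and Taf1d belong with Tbp to SL1, the selectivity factor of RNA polymerase I at ribosomal RNA genes. The mouse oocyte is transcriptionally silent when it completes growth, stored maternal RNA is degraded after fertilisation, and the main wave of embryonic transcription starts at the 2-cell stage.

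The stage labels were checked against marker genes. All 8 oocyte markers (among them Zp3, Gdf9 and Bmp15) were above the median signal of 41.1 on every oocyte array, and their summed signal was 35564 to 38509 in oocytes, 30009 to 39370 in 1-cell embryos, 8103 to 11036 in 2-cell embryos, 388.7 to 633.1 in 8-cell embryos and 208.6 to 288.9 in blastocysts. Of 7 blastocyst markers, 6 were above the median on every blastocyst array, where they summed to 8020 to 9907, against 279.3 to 1047 elsewhere. All 5 markers of 2-cell embryos were above the median there (summed signal 7697 to 9890), against 1 of 5 in oocytes and 1-cell embryos, but their sum was higher still in 8-cell embryos (17229 to 19144) and blastocysts (10434 to 12854). None of 7 cumulus and granulosa markers was above the median on all arrays of any stage (summed signal 64.8 to 172.3). Blood markers (1 to 3 of 6 above the median, by stage) summed to 192.3 to 591.5, and sperm markers (1 to 4 of 6) to 162.9 to 436.1. In 2-cell embryos the blood sum was 475.4 to 591.5, against 253.5 to 365.7 in 1-cell embryos. The sperm sum was 385.7 to 436.1, against 286.1 to 371.8. Both sums were thus higher in 2-cell than in 1-cell embryos, and their part in the results was not tested. Oviduct and uterus markers summed to 7215.9 on 8-cell array 2, against 156.1 to 484.8 on the other 8-cell arrays. They summed to 1057.3 to 1722.6 in 2-cell embryos, against 243.1 to 447.9 in 1-cell embryos and 134.4 to 193 in oocytes. Their sum thus moved with the step to the 2-cell stage, and its part in the results was not tested. Ovgp1, an oviduct secretion, had 688.1 to 1272 in 2-cell embryos, against 28.8 to 56.4 in 1-cell embryos. Ltf had 167.1 to 291.1, against 10.9 to 72.5. The ranges of Col1a1 (116.2 to 154.2, against 145.5 to 206.7), Col3a1, Pgr and Muc1 overlapped between these stages. In bulk RNA, fewer cells holding a transcript cannot be told apart from less of it per cell.

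Values are the deposited signal intensities. The middle 96% of each array's probe sets averaged 150.097 to 150.133, a common scaling read from the values and not stated in the sources used here. Every difference therefore says how a transcript moved relative to the rest of the array. Bacterial spike-in transcripts, meant to be added to each hybridisation in fixed amounts, did not stay level under this scaling: their mean of 9 probe sets was higher by 1.12 on the log2 scale in 1-cell embryos than in oocytes, by 0.64 in 8-cell than in 2-cell embryos, and lower in blastocysts than in 8-cell embryos (-1.18). Whether equal amounts were added to these arrays was not tested. Scaling the arrays on these spikes instead moved the median of all tested probe sets by -1.12 for 1-cell against oocyte, 0.226 for 2-cell against 1-cell, -0.64 for 8-cell against 2-cell, 1.18 for blastocyst against 8-cell, -0.89 for 2-cell against oocyte and -0.355 for blastocyst against oocyte. Spike scaling turned 10 of 11 positive differences of the set in 1-cell against oocyte, 7 of 12 in 8-cell against 2-cell and 11 of 19 in 2-cell against oocyte, and 15 of 21 negative ones in blastocyst against 8-cell. The log2 ratio of the 3' to the 5' probe set of beta-actin, a measure of RNA integrity and amplification, was 0.95 to 1.24 in blastocysts and 1.62 to 2.50 in the other stages, and that of Gapdh was 0.22 to 1.56 in 8-cell embryos and 1.94 to 3.04 in the others. The 3 control probe sets for 18S ribosomal RNA were higher by 4.41 to 5.75 on the log2 scale in 1-cell embryos than in oocytes and lower in 2-cell than in 1-cell embryos (-4.23 to -2.42), in the steps where many probe sets of the set fell and then rose. The part of these controls in the results was not tested.

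Of the 32 probe sets, 31 had a signal above 41.1 on at least 3 arrays and were tested, and the probe set of Taf15 was not. Over the 5 stages, 30 of the 31 (96.8%) differed between stages in limma's moderated F test at a Benjamini-Hochberg adjusted p below 0.05, against 84.7% of all 8067 probe sets tested. The exception was Polr2a 103054_at (adjusted p = 0.117). The median range between a probe set's highest and lowest stage mean was 2.38 on the log2 scale, against 1.78 over all tested. The stage of lowest signal was the 1-cell embryo for 14 of the 31 (45.2%), against 24% of all probe sets tested. No other stage held more than 7 of the minima, and the maxima were spread over oocyte (7), 1-cell (7), 2-cell (7), 8-cell (8) and blastocyst (2).

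The moderated comparison of consecutive stages (limma, adjusted over all 8067 probe sets) gave the most rises in the set at the step to the 2-cell embryo, on the deposited scale. In 2-cell embryos 17 of the 31 probe sets rose and 7 fell relative to 1-cell embryos, which is 54.8% and 22.6%, against a background of 25.9% called higher and 21.2% called lower. Their median difference was 0.61 on the log2 scale, and 0.06 over all tested. With the arrays scaled on the spikes, 15 rose and 2 fell (23.6% and 10% of all probe sets). With the median of each array set equal, 15 rose and 10 fell (20% and 30.2% of all).

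One step earlier the counts lay the other way. In 1-cell embryos 6 probe sets rose and 14 fell relative to oocytes (19.4% and 45.2%), against a background of 17.3% higher and 19.8% lower. Here the median was -0.36, and 0.04 over all tested. All 6 rises were lost with spike scaling, which called 0 higher and 22 lower of the set, and 0.223% higher and 66.4% lower of all probe sets. The adjacent comparisons share the 1-cell arrays, so the 2 sets of counts are not independent.

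After the 2-cell stage, falls outnumbered rises. In 8-cell embryos 6 rose and 12 fell relative to 2-cell embryos (background 25.8% higher and 28.3% lower). The set's shares were 19.4% and 38.7%. In blastocysts 4 rose and 13 fell relative to 8-cell embryos, or 12.9% and 41.9%, against a background of 21.8% and 20.8%. This last direction turned with spike scaling, which gave 17 higher and 1 lower in blastocysts (66.4% and 1.85% of all probe sets). The step to the 8-cell stage gave 0 higher and 18 lower with it (9.5% and 42.6% of all). Setting array medians equal gave 7 higher and 8 lower in 8-cell embryos (29.5% and 24% of all). Without 8-cell array 2, the 8-cell array with the highest oviduct and uterus signal, the counts were 5 higher and 9 lower in 8-cell against 2-cell embryos, and 3 higher and 13 lower in blastocysts against 8-cell embryos.

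**Figure D1:**
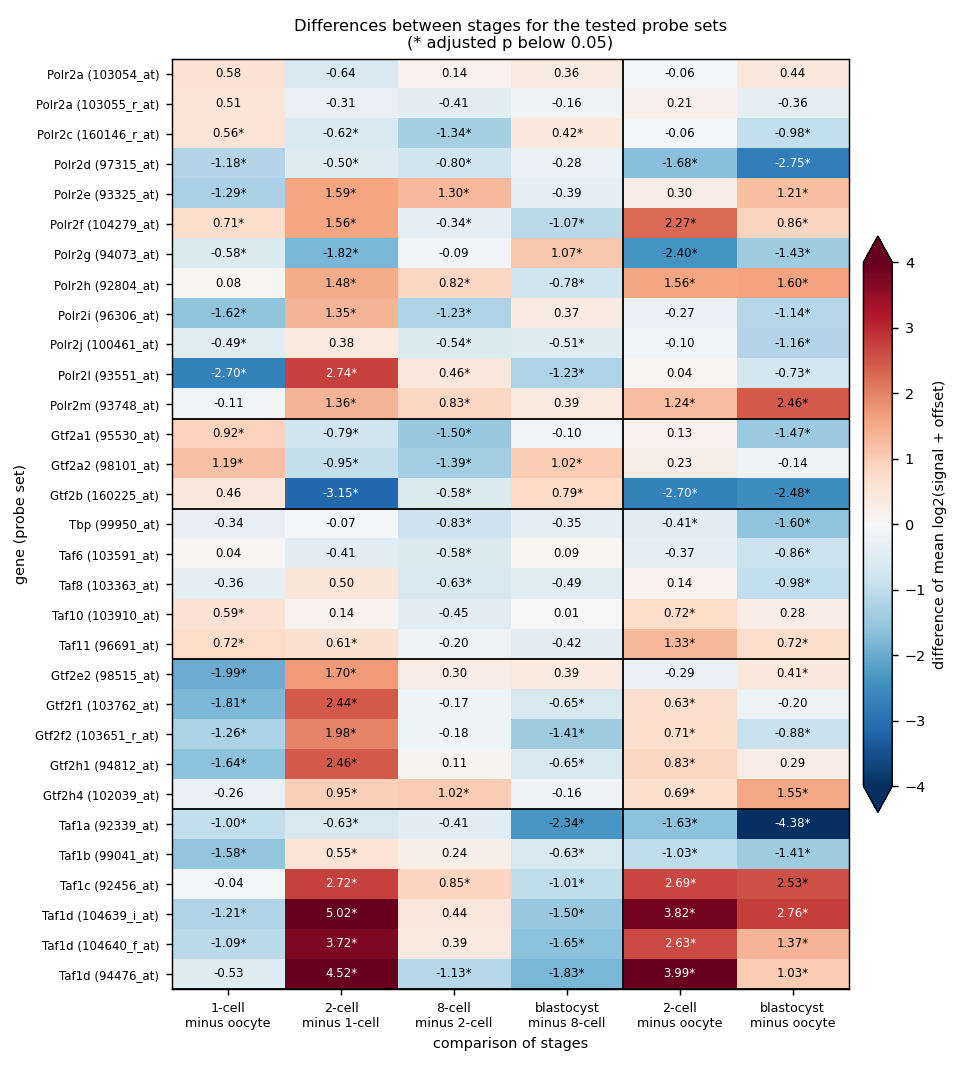
Heat map of the log2 difference in signal for each probe set of RNA polymerase II and the general factors (rows) in 6 comparisons of stages (columns), later stage minus earlier, with a star where the limma call was made. TFIIE, TFIIF, TFIIH and SL1 probe sets are mostly negative in 1-cell against oocyte and positive in 2-cell against 1-cell embryos, and with spike scaling the positive values in 1-cell against oocyte, other than that of Gtf2a2 (0.07), and 15 of the 21 negative values in blastocyst against 8-cell turn sign.

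Set against the oocyte, 2-cell embryos had 13 probe sets higher and 6 lower (background 25.8% higher and 23.2% lower). These are shares of 41.9% and 19.4%, and spike scaling gave 5 higher and 14 lower (7.74% and 47.4% of all). Equal array medians gave 9 higher and 8 lower (19.5% and 29.3% of all). In blastocysts 11 were higher and 14 lower than in oocytes, or 35.5% and 45.2%, against a background of 32.2% and 32.1%. With spike scaling these were 7 and 14 (20.6% and 35.1% of all), a split of 33.3% higher among those called, against 44% on the deposited scale.

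**Figure D2:**
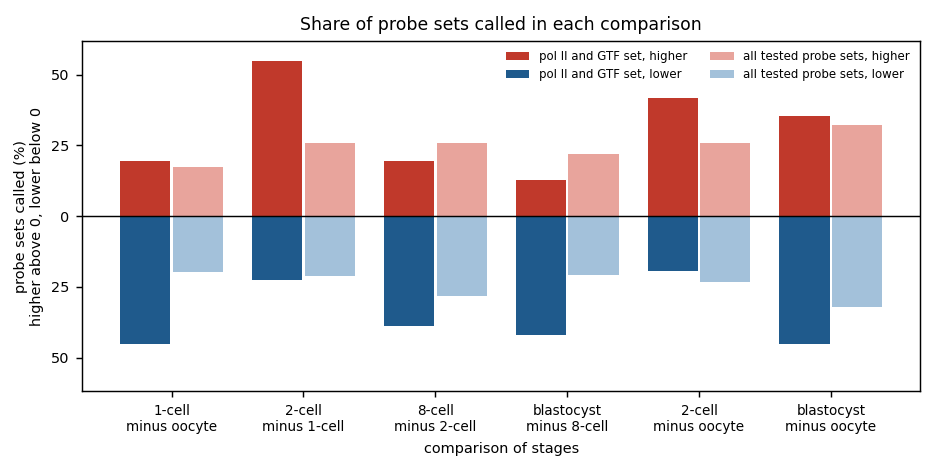
Share of probe sets called higher or lower in each comparison (percent), for the set of RNA polymerase II and the general factors (31 tested) and for all 8067 probe sets tested. The set exceeds the background for calls lower in 1-cell against oocyte (45.2% and 19.8%) and for calls higher in 2-cell against 1-cell (54.8% and 25.9%); with spike scaling the blastocyst against 8-cell bars turn direction.

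The polymerase was represented by 12 probe sets for 11 genes, counting Polr2m, a polymerase-associated protein. In 1-cell embryos 2 rose and 6 fell relative to oocytes (17.3% and 19.8% of all probe sets). In 2-cell embryos 6 rose and 3 fell relative to 1-cell embryos (25.9% and 21.2% of all). In 8-cell embryos 4 rose and 5 fell relative to 2-cell embryos (25.8% and 28.3% of all). In blastocysts 2 rose and 4 fell relative to 8-cell embryos (21.8% and 20.8% of all). The largest swing was that of Polr2l, a small zinc-binding subunit of all 3 nuclear polymerases. Its signal was 2184.2, 2496.7, 2530 and 2980.7 in oocytes and 331.4, 357.9 and 465.9 in 1-cell embryos. It was 2338.1, 3016.3 and 2494.8 in 2-cell embryos, 3662.2, 3954.8, 3431.8 and 3324.5 in 8-cell embryos, and 1811.8, 1283 and 1532.6 in blastocysts. The 3 1-cell arrays lay below all others by a wide margin. Polr2l fell by 2.70 ± 0.16 on the log2 scale (SE) in 1-cell embryos against oocytes, 6.49-fold (adjusted p = 3.4e-11), and rose 6.67-fold in 2-cell against 1-cell embryos (2.74 ± 0.17, adjusted p = 2.0e-11). Its further rise in 8-cell embryos (0.46, adjusted p = 0.0188) turned to -0.059 with quantile normalization and to -0.18 with spike scaling. That call was also lost when 2-cell array 1 or 3 (adjusted p = 0.0821 and 0.0502) or 8-cell array 2 (0.0520) was left out.

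Other shared subunits also rose at the 2-cell stage. Polr2f, which the polymerases need for assembly, had signals of 545.4, 598.9, 512.9 and 508 in oocytes, 817.9, 1081.1 and 791.2 in 1-cell embryos, and 2481.2, 2598.2 and 2877.5 in 2-cell embryos. It had 2417.6, 2073.6, 1978.3 and 1899.4 in 8-cell embryos and 972.8, 1002.5 and 990.5 in blastocysts. No 2-cell array overlapped any oocyte or 1-cell array. The difference was 2.27 ± 0.14 in 2-cell embryos against oocytes, 4.83-fold (adjusted p = 2.0e-11), and 1.56 ± 0.15 against 1-cell embryos (adjusted p = 1.5e-08). Its smaller rise in 1-cell embryos (0.71) was -0.41 with spike scaling, and its fall in blastocysts against 8-cell embryos (-1.07) was 0.11 on that scale. Polr2h averaged 369 ± 31.7 in 2-cell embryos, against 125 ± 7.5 in 1-cell embryos (SD, n = 3 each), a 2.79-fold rise (adjusted p = 2.1e-07). It averaged 664 ± 95.0 in 8-cell embryos (n = 4), 1.77-fold above the 2-cell stage, a call lost with spike scaling (0.18, adjusted p = 0.665). Polr2e had its lowest signals in 1-cell embryos (32, 50.7 and 44.6, against 98.3 to 134.7 in oocytes), rose 3.01-fold in 2-cell embryos, and reached 308.5 to 453.7 in 8-cell embryos. All 4 shared subunits tested, which leave out Polr2k, thus were higher in 2-cell than in 1-cell embryos (25.9% of all probe sets). Their 2-cell and 1-cell arrays did not overlap, as for 25 of the 31 probe sets of the set. The share without overlap among all probe sets was not counted, so neither count can be read as particular to these genes.

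**Figure D3:**
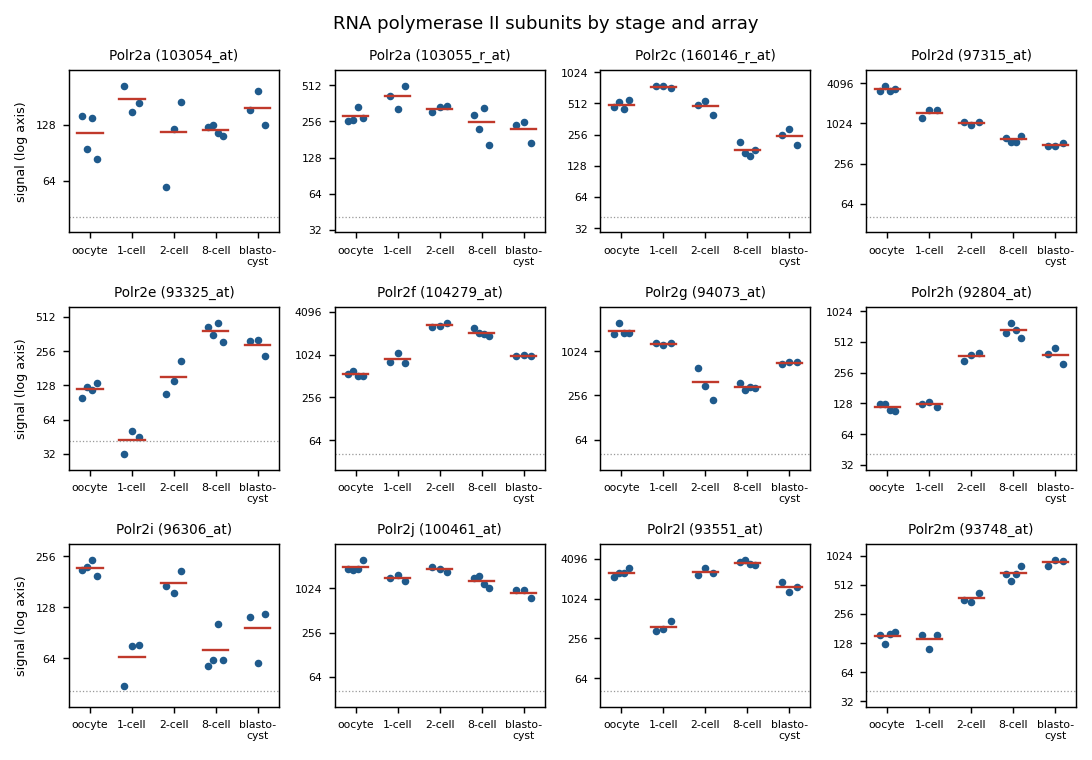
Signal intensity of each RNA polymerase II probe set by stage, on a log2 axis, with 1 point per array, a line at the stage mean and a dotted line at the filter of 41.1. Polr2l dips to 331.4 to 465.9 in 1-cell embryos, Polr2f steps up to 2481.2 to 2877.5 in 2-cell embryos, and the stage mean of Polr2d is lower at each later stage; with spike scaling the small rise of Polr2f in 1-cell embryos turns to a fall, and the fall of Polr2d in blastocysts against 8-cell embryos, not called here, turns to a rise.

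The subunits particular to polymerase II did not move as one. Polr2d and Polr2g form the stalk, a detachable pair of subunits that contacts the emerging RNA, and both fell. Polr2d had signals of 3108.4, 3734.9, 3174.3 and 3386.5 in oocytes, 1221.3, 1610.5 and 1626.5 in 1-cell embryos and 1075.3, 956.9 and 1086.1 in 2-cell embryos. In 8-cell embryos it had 621.9, 546.5, 547.7 and 662.8, and in blastocysts 468.5, 470.1 and 524.4. No array overlapped with one of an earlier stage. It fell 6.74-fold in blastocysts against oocytes (-2.75 ± 0.14, adjusted p = 2.8e-13), with calls in each step but the last; the step to the 2-cell stage (-0.50) was not called with quantile normalization (-0.28, adjusted p = 0.122) or spike scaling (adjusted p = 0.601). Polr2g had signals of 598.7, 339.2 and 225.4 in 2-cell embryos, against 1315.4, 1236.5 and 1337.6 in 1-cell embryos, a 3.54-fold fall (-1.82 ± 0.23, adjusted p = 8.5e-07). In blastocysts it had 684.9, 728 and 730.1, against 378.4, 305.4, 332.1 and 328.2 in 8-cell embryos, so that it rose 2.1-fold (adjusted p = 3.8e-04). Its fall in 1-cell embryos against oocytes (-0.58, adjusted p = 0.0396) was lost without any 1 of oocyte arrays 2, 3 and 4 or of 1-cell arrays 1, 2 and 3 (adjusted p = 0.0505 to 0.126).

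Polr2m, a polymerase-associated protein that competes with TFIIF and lends the enzyme dependence on the Mediator complex, rose in the steps to the 2-cell and the 8-cell stage. Its signal was 154.8, 125.3, 160.5 and 165.6 in oocytes, 154.5, 110.9 and 155.6 in 1-cell embryos and 358.6, 338.6 and 422.8 in 2-cell embryos. It was 661.3, 564, 665.3 and 799.7 in 8-cell embryos and 806.5, 922.5 and 902.1 in blastocysts. Oocyte and 1-cell arrays overlapped, and from the 2-cell stage on the arrays of each stage lay above those before. Polr2m rose 5.49-fold in blastocysts against oocytes (2.46 ± 0.16, adjusted p = 2.3e-11) and 2.56-fold in 2-cell against 1-cell embryos (adjusted p = 1.2e-06). Its rise in 8-cell embryos (0.83) was not called with spike scaling (0.19, adjusted p = 0.656), nor was that in 2-cell embryos against oocytes (1.24, and 0.35 with spikes, adjusted p = 0.368). The last step, 0.39 in blastocysts against 8-cell embryos, did not pass the test (adjusted p = 0.0641) and passed without 8-cell array 4 (0.47, adjusted p = 0.0314).

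Polr2i, a subunit that in yeast supports transcription fidelity, had signals of 44, 75.4 and 76.2 in 1-cell embryos, against 212.3, 220.6, 243.9 and 195.9 in oocytes, a 3.07-fold fall (adjusted p = 1.3e-05). It was 2.54-fold higher in 2-cell than in 1-cell embryos and 2.35-fold lower in 8-cell than in 2-cell embryos (adjusted p = 1.4e-04 and 1.5e-04). Polr2c, a subunit of the assembly core, averaged 182 ± 25.5 in 8-cell embryos (n = 4), against 480 ± 75.5 in 2-cell embryos (n = 3), a 2.54-fold fall (adjusted p = 3.5e-07). Its rise in 1-cell embryos (0.56) was -0.56 with spike scaling. Its rise in blastocysts (0.42, adjusted p = 0.0398) was lost without 8-cell array 2, 3 or 4 or blastocyst array 1 or 2 (adjusted p = 0.0566 to 0.188). Polr2j, the assembly partner of Polr2c, fell 2.23-fold in blastocysts against oocytes (-1.16 ± 0.16, adjusted p = 2.1e-06). Its fall in 1-cell embryos (-0.49) was lost when oocyte array 4 (adjusted p = 0.0891) or 1-cell array 1 or 3 (0.0603 and 0.0885) was left out, and its fall in blastocysts against 8-cell embryos (-0.51, and 0.67 with spike scaling) without 8-cell array 2 (0.0537) or blastocyst array 3 (0.103). The fall of Polr2f in 8-cell embryos (-0.34, adjusted p = 0.0439) was lost without any 1 of 10 arrays (oocyte 1, 3 and 4, 2-cell 2 and 3, 8-cell 2, 3 and 4, blastocyst 1 and 2; adjusted p = 0.0507 to 0.133).

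Polr2a encodes the largest subunit, which carries the catalytic centre and the C-terminal repeat domain. None of its 12 comparisons, from both probe sets, was called by limma, and 3 had an unadjusted p below 0.05. With equal array medians both probe sets were called lower in 2-cell against 1-cell embryos (-0.92 and -0.58), and with spike scaling both were called higher in blastocysts against 8-cell embryos (1.53 and 1.02). In 1-cell embryos against oocytes both were called higher with quantile normalization (0.70 and 0.59, adjusted p = 0.0369 and 0.0321). The fit of only those stages also called both higher (adjusted p = 0.0469 and 0.0291). Quantile normalization called 103054_at lower in 2-cell against 1-cell embryos (-0.88, adjusted p = 0.0113). Equal array medians called 103055_r_at higher in 1-cell embryos against oocytes (0.57, adjusted p = 0.0289). Probe set 103054_at had signals of 83.2 to 142.9 in oocytes, 149.5 to 206.1 in 1-cell embryos, 59.2 to 168.6 in 2-cell embryos, 110.5 to 126.6 in 8-cell embryos and 126.7 to 193.1 in blastocysts. Probe set 103055_r_at had 259 to 339, 322.6 to 506.2, 305.2 to 342.9, 163.9 to 333.1 and 169.6 to 255.4 in the same order. For 103054_at the largest difference was -0.64 ± 0.28 in 2-cell against 1-cell embryos (adjusted p = 0.0649), which passed without 2-cell array 3 (-0.94, adjusted p = 0.00913), and the difference of 0.58 in 1-cell embryos against oocytes (adjusted p = 0.0865; -0.54 with spike scaling) passed without 2-cell array 1 (0.0342). For 103055_r_at, 0.51 in 1-cell embryos against oocytes (adjusted p = 0.0649; -0.60 with spike scaling) passed without oocyte array 3 (0.04996), 1-cell array 2 (0.0347) or 8-cell array 4 (0.0366), and -0.41 in 8-cell against 2-cell embryos without 8-cell array 3 (-0.55, adjusted p = 0.0371).

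The bridging and stabilising factors moved opposite to most of the set at the 2-cell stage. Gtf2b encodes TFIIB, and Gtf2a1 and Gtf2a2 the subunits of TFIIA. In 2-cell against 1-cell embryos all 3 fell (21.2% of all probe sets), where 17 of the other 28 probe sets rose (25.9% of all). With spike scaling Gtf2a1 (-0.56, adjusted p = 0.245) and Gtf2a2 (-0.73, adjusted p = 0.139) were not called. Gtf2b had signals of 1084.9, 585.6 and 463.6 in 2-cell embryos, against 5843.5, 5753.6 and 6452.6 in 1-cell embryos and 3672.8, 6303.8, 4345.2 and 3634 in oocytes. It was 464, 414.3, 441.9 and 449.1 in 8-cell embryos and 828.6, 653.8 and 853.5 in blastocysts. Oocyte and 1-cell arrays overlapped, and every later array lay below both. The fall in 2-cell against 1-cell embryos was 8.9-fold (-3.15 ± 0.24, adjusted p = 3.7e-10), and -2.93 with spike scaling. The difference of 0.46 in 1-cell embryos against oocytes did not pass (adjusted p = 0.116; -0.66 with spike scaling) and passed without oocyte array 2 (0.0282) or 2-cell array 1 (0.0414). The call in 8-cell against 2-cell embryos (-0.58, adjusted p = 0.0321) was lost when 2-cell array 1 (-0.23, adjusted p = 0.350) or 8-cell array 2 or 3 (0.0647 and 0.0530) was left out.

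Gtf2a2 had signals of 392.1, 395.2, 317 and 386.9 in oocytes, 874.4, 786.6 and 920.5 in 1-cell embryos, 562.7, 571.2 and 260.2 in 2-cell embryos, 173.5, 131.7, 204.5 and 140.3 in 8-cell embryos, and 454.9, 351.4 and 234.6 in blastocysts. The 1-cell arrays were the highest, and no other array reached them. It rose 2.28-fold in 1-cell embryos against oocytes (1.19 ± 0.24, adjusted p = 4.8e-04), a value of 0.07 with spike scaling, and fell 2.63-fold in 8-cell against 2-cell embryos (adjusted p = 4.5e-05). Gtf2a1 shared the 1-cell maximum, with 1341.9, 1381.2 and 978.8, against 698.7, 640.3, 674.5 and 553.4 in oocytes (1.89-fold, adjusted p = 3.6e-04, and -0.20 with spike scaling). It fell 2.83-fold in 8-cell against 2-cell embryos (adjusted p = 4.0e-07) and averaged 225 ± 20.2 in blastocysts (n = 3). In 2-cell against oocyte, Gtf2a2 (0.23, and -0.66 with spike scaling) passed without 2-cell array 3 (0.60, adjusted p = 0.0308). In blastocysts Gtf2a2 rose 2.02-fold relative to 8-cell embryos (adjusted p = 0.00177), and Gtf2a1 had a difference of -0.10 (adjusted p = 0.689). With spike scaling both were called higher (2.19 and 1.07).

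**Figure D4:**
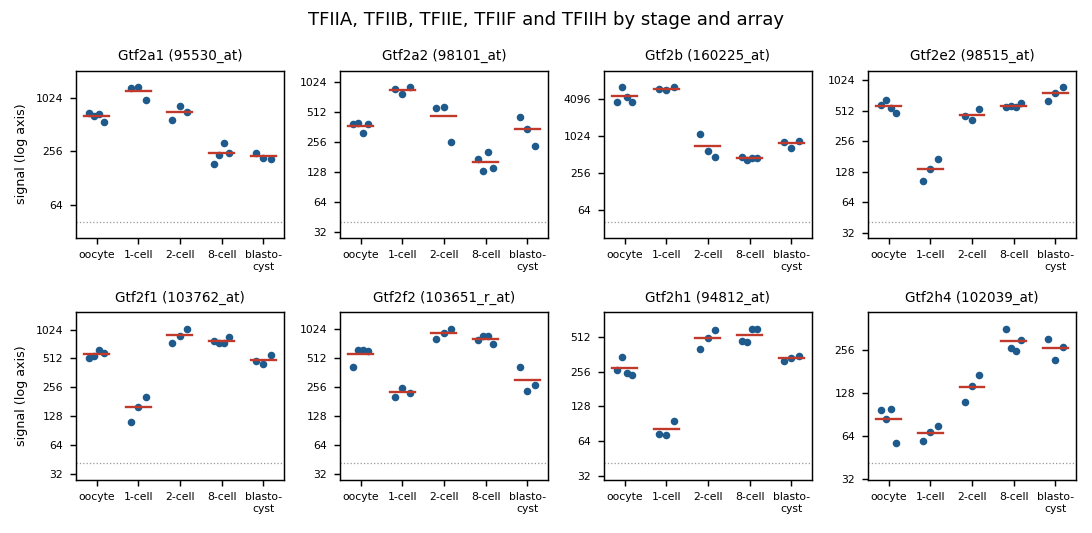
Signal intensity of the TFIIA, TFIIB, TFIIE, TFIIF and TFIIH probe sets by stage, on a log2 axis, with 1 point per array, a line at the stage mean and a dotted line at the filter of 41.1. Gtf2b drops to 463.6 to 1084.9 in 2-cell embryos, while Gtf2f1, Gtf2h1 and Gtf2e2 dip in 1-cell embryos and return at the 2-cell stage; with spike scaling the peak of Gtf2a1 in 1-cell embryos over oocytes turns to a fall.

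The factors that complete the complex showed a common dip. Of the 5 probe sets for TFIIE, TFIIF and TFIIH subunits, 4 fell in 1-cell embryos against oocytes (19.8% of all probe sets). In 2-cell against 1-cell embryos all 5 rose (25.9% of all). Gtf2h1, a core TFIIH subunit, had signals of 74.2, 72.9 and 95.8 in 1-cell embryos, against 267.4, 341.7, 251.7 and 239.1 in oocytes. It had 400.1, 502.4 and 590.4 in 2-cell embryos, 473.1, 459.3, 604.1 and 605.1 in 8-cell embryos and 319.8, 335.5 and 349.7 in blastocysts. The fall was 3.11-fold (adjusted p = 1.8e-07) and the rise that followed 5.51-fold (2.46 ± 0.19, adjusted p = 3.9e-10).

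Gtf2f1, the large subunit of TFIIF, repeated this course with 110.4, 161.2 and 203.8 in 1-cell embryos, against 523.1, 539.8, 624.8 and 584.3 in oocytes, and with 747.5, 872.8 and 1049 in 2-cell embryos. The 2-cell arrays lay above the oocyte arrays too (1.55-fold, adjusted p = 0.00468), a direction that turned with spike scaling (-0.26), as did those of Gtf2h1 (0.83, and -0.063 with spikes), Gtf2f2 (0.71 and -0.18) and Gtf2h4 (0.69 and -0.20). Gtf2f2, the small TFIIF subunit, rose 3.94-fold in 2-cell against 1-cell embryos and fell 2.66-fold in blastocysts against 8-cell embryos (adjusted p = 3.9e-08 and 3.4e-06), the fall not called with spike scaling (-0.24, adjusted p = 0.516). Gtf2e2, the beta subunit of TFIIE, had 103.6, 136.6 and 170.7 in 1-cell embryos, against 582.8, 656.5, 546.5 and 488.7 in oocytes (-1.99 ± 0.17, adjusted p = 6.4e-09). It reached 637.5, 763.4 and 877.9 in blastocysts, and its rise there against oocytes (0.41, adjusted p = 0.0395) was lost without oocyte array 1, 3 or 4 or blastocyst array 2 or 3 (adjusted p = 0.0553 to 0.176). Its difference of 0.39 in blastocysts against 8-cell embryos (adjusted p = 0.0655) passed without 1-cell array 1 (0.0470) or blastocyst array 1 (0.51, adjusted p = 0.0378). Gtf2h4, another core TFIIH subunit, was the one of the 5 with no call in 1-cell embryos (-0.26, adjusted p = 0.355). It rose 1.94-fold in 2-cell embryos and 2.02-fold in 8-cell embryos (adjusted p = 0.00105 and 2.5e-04), the second call lost with spike scaling (0.38, adjusted p = 0.378). Its call in 2-cell embryos against oocytes was lost without 2-cell array 3 (0.55, adjusted p = 0.0543).

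Of the TFIID group's 5 probe sets (Tbp, Taf6, Taf8, Taf10 and Taf11), 2 rose and 0 fell in 1-cell embryos against oocytes (17.3% and 19.8% of all probe sets). In 2-cell against 1-cell embryos 1 rose and 0 fell (25.9% and 21.2% of all). In 8-cell against 2-cell embryos 3 fell and 0 rose (28.3% and 25.8% of all). In blastocysts against 8-cell embryos limma called none either way (21.8% higher and 20.8% lower of all), with 3 of 5 at an unadjusted p below 0.05. Tbp, which binds the TATA element and serves all 3 polymerases, had signals of 373.6, 412.5, 375.6 and 308.9 in oocytes, 310.6, 258.8 and 291.6 in 1-cell embryos and 293.6, 250.3 and 273.1 in 2-cell embryos. It had 133.2, 159.9, 149.7 and 152.6 in 8-cell embryos and 135.7, 103.7 and 104.7 in blastocysts. The 2-cell and 1-cell arrays overlapped, and every 8-cell array lay below them. Tbp fell 1.77-fold in 8-cell against 2-cell embryos (-0.83 ± 0.16, adjusted p = 1.3e-04) and 3.02-fold in blastocysts against oocytes (adjusted p = 1.1e-08). Its fall in 2-cell embryos against oocytes (-0.41, adjusted p = 0.0334) was lost without oocyte array 1, 2 or 3 or 2-cell array 2 or 3 (adjusted p = 0.0635 to 0.124). The difference in blastocysts against 8-cell embryos (-0.35, adjusted p = 0.0756, and 0.82 with spike scaling) passed without blastocyst array 1 (-0.47, adjusted p = 0.0391).

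Among the TAFs, Taf11 and Taf10, both histone-fold subunits, were higher in 2-cell embryos than in oocytes on the deposited scale. Taf11 had 442.7, 501.8 and 556.7 in 2-cell embryos, against 220.1, 155, 200.5 and 196.7 in oocytes (2.52-fold, adjusted p = 5.1e-06), and was not called with spike scaling (0.44, adjusted p = 0.274). In 1-cell embryos it had 320.2, 323.3 and 323.3, above every oocyte array (0.72, and -0.40 with spike scaling). Its rise in 2-cell against 1-cell embryos (0.61, adjusted p = 0.0177) was lost without 2-cell array 3 (0.0686), with equal array medians (adjusted p = 0.273) and with spike scaling (adjusted p = 0.0745), and its difference in blastocysts against 8-cell embryos (-0.42, and 0.76 with spike scaling) passed without 8-cell array 2 (-0.52, adjusted p = 0.0439). Taf10, also part of the SAGA coactivator, rose 1.65-fold in 2-cell embryos against oocytes (0.72, adjusted p = 0.00488, and -0.17 with spike scaling). Its rise in 1-cell embryos (0.59, adjusted p = 0.0262, and -0.53 with spike scaling) was lost without oocyte array 1, 2 or 3 or 1-cell array 1 or 2 (adjusted p = 0.0541 to 0.201). Its difference of -0.45 in 8-cell against 2-cell embryos (adjusted p = 0.0644) passed without oocyte array 4 (0.0492), 1-cell array 1 (0.0465) or 8-cell array 1 (0.0397).

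Taf6 and Taf8, the histone-fold partner of Taf10, had low signals and no call in 2-cell embryos against oocytes (-0.37 and 0.14), and were lower in blastocysts. Taf6 had 36.3, 40.6 and 24.7 in blastocysts, all below the filter of 41.1, against 61.6, 61.1, 71.7 and 84.3 in oocytes (-0.86 ± 0.22, adjusted p = 0.00148). Taf8 had 52.2, 43.2 and 59.2 in blastocysts, against 123.9, 108.1, 113.7 and 100.4 in oocytes (-0.98 ± 0.23, adjusted p = 7.96e-04). Their falls in 8-cell against 2-cell embryos were less secure. That of Taf6 (-0.58, adjusted p = 0.0288) was lost without 2-cell array 1 or 3 or 8-cell array 2 (adjusted p = 0.0646 to 0.107), and that of Taf8 (-0.63, adjusted p = 0.0250) without 2-cell array 2 or 3 or 8-cell array 1 or 3 (adjusted p = 0.0574 to 0.165). Further, Taf8 passed in 2-cell against 1-cell embryos without 2-cell array 1 (0.78, adjusted p = 0.0111; 0.50 with it) and in blastocysts against 8-cell embryos without 8-cell array 1 (-0.61, adjusted p = 0.0465; -0.49 with it, and 0.69 with spike scaling).

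**Figure D5:**
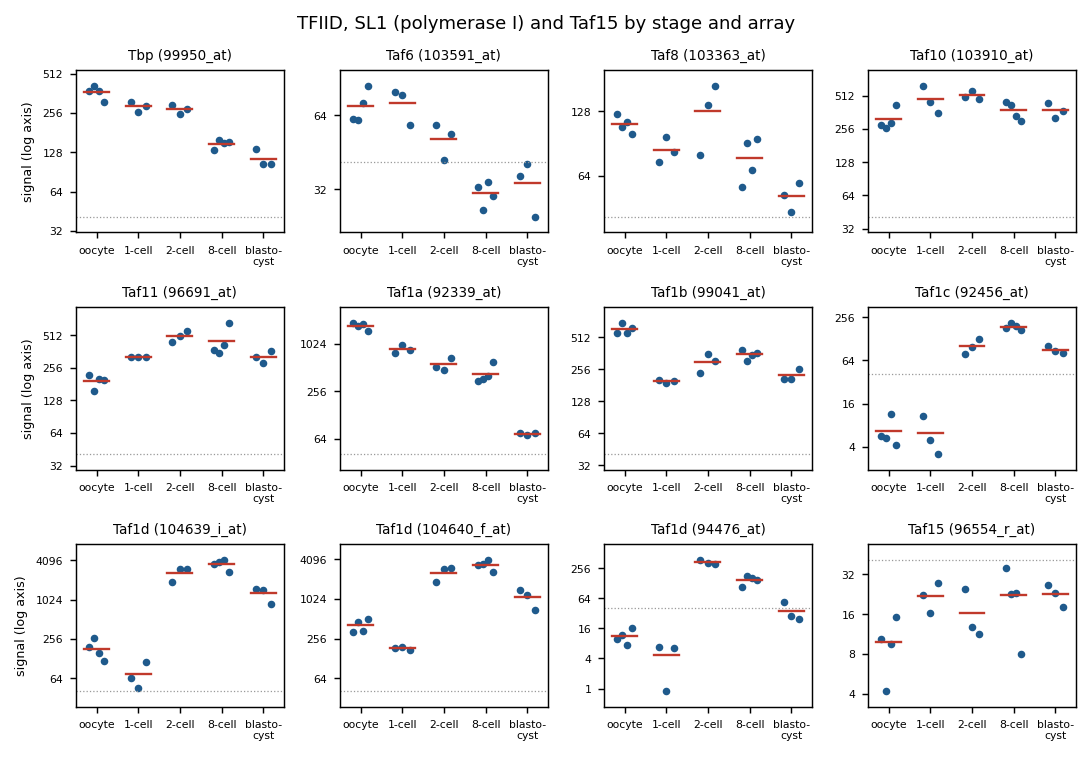
Signal intensity of the TFIID and SL1 probe sets and of Taf15 by stage, on a log2 axis, with 1 point per array, a line at the stage mean and a dotted line at the filter of 41.1. Tbp steps down at the 8-cell stage, Taf1a is highest in oocytes and lowest in blastocysts (71 to 75), and Taf1c and the 3 Taf1d probe sets step up in 2-cell embryos; with spike scaling the rises of Taf10 and Taf11 in 1-cell embryos over oocytes turn to falls.

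The name rule also takes in the TAFs of SL1, which act with RNA polymerase I, and these held the widest changes. Of 6 probe sets for 4 genes, 4 fell in 1-cell embryos against oocytes (19.8% of all probe sets). In 2-cell against 1-cell embryos 5 rose and 1 fell (25.9% and 21.2% of all). All 6 fell in blastocysts against 8-cell embryos (20.8% of all), where only Taf1a kept the call with spike scaling. Taf1d had 3 probe sets, so that these counts are not of independent genes. By 94476_at, whose probes are not marked as shared with other transcripts, its signal was 10, 11.9, 7.4 and 16.3 in oocytes and 6.7, 0.9 and 6.6 in 1-cell embryos, all below the filter. It was 377.4, 323.1 and 312 in 2-cell embryos, 108.9, 176.2, 163.5 and 150 in 8-cell embryos and 53.4, 28.8 and 24.3 in blastocysts. The 2-cell arrays stood above all others. The rise in 2-cell against 1-cell embryos was 4.52 ± 0.27 on the log2 scale (adjusted p = 9.5e-12), with a size that depends on the offset of 10.7 added to each signal (6.13 with an offset of 1 and 3.33 with 32). This probe set too passed the filter through its later stages. The other probe sets had 1893, 3072 and 3034.9 (104639_i_at) and 1830.7, 2888.2 and 3010.4 (104640_f_at) in 2-cell embryos, against 64, 45.1 and 114.1 and against 185.4, 187.8 and 170.7 in 1-cell embryos. These were rises of 32.5-fold and 13.2-fold (5.02 and 3.72 on the log2 scale). In 8-cell against 2-cell embryos 94476_at fell by 1.13 (adjusted p = 6.3e-04), while 104639_i_at and 104640_f_at had differences of 0.44 and 0.39 that did not pass (adjusted p = 0.189 and 0.147). These were -0.20 and -0.25 with spike scaling and -0.089 and -0.10 with quantile normalization, on the side of 94476_at.

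Taf1c, the other SL1 gene with low signals before the 2-cell stage, had 5.7, 5.3, 11.5 and 4.2 in oocytes, 10.8, 5 and 3.2 in 1-cell embryos, 78.9, 97.2 and 128.8 in 2-cell embryos, 181, 213.5, 195.7 and 168.8 in 8-cell embryos, and 100.5, 86.3 and 80.3 in blastocysts. Every array up to the 1-cell stage was below the filter and every later one above it. It passed the filter through its later stages, so that a difference from the earlier ones follows from its selection; the log2 difference in 2-cell against 1-cell embryos, 2.72, was 3.91 with an offset of 1 and 1.79 with an offset of 32. Its fall in blastocysts against 8-cell embryos (-1.01) was 0.17 with spike scaling.

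Taf1a and Taf1b were instead highest in the oocyte. Taf1a had signals of 1899.6, 1750.8, 1843 and 1518.1 in oocytes, 775.7, 985.9 and 861.1 in 1-cell embryos and 528.6, 478.9 and 683.4 in 2-cell embryos. It had 341.7, 365.9, 397.6 and 600.1 in 8-cell embryos and 75, 71 and 74.5 in blastocysts. Neighbouring stages overlapped only between the 2-cell and 8-cell arrays. The fall in blastocysts against oocytes, 20.9-fold (-4.38 ± 0.18, adjusted p = 7.9e-15), was the widest of the 31 probe sets in that comparison, and -4.74 with spike scaling. Its fall in 2-cell against 1-cell embryos (-0.63, adjusted p = 0.00903) was lost without 2-cell array 2 (0.0540) and with spike scaling (adjusted p = 0.437), and its difference in 8-cell against 2-cell embryos (-0.41, adjusted p = 0.0564) passed without 2-cell array 2 (0.0395) or 8-cell array 4 (-0.59, adjusted p = 0.00413). Taf1b had 202.6, 190.2 and 198.9 in 1-cell embryos, against 565, 696.2, 563.4 and 627.5 in oocytes, a 2.99-fold fall (adjusted p = 8.3e-08). Its rise in 2-cell embryos (0.55, adjusted p = 0.0102) was lost without 2-cell array 2 (0.0721), with equal array medians (0.28, adjusted p = 0.258) and with spike scaling (adjusted p = 0.0841), and its fall in blastocysts against 8-cell embryos (-0.63) was 0.55 with spike scaling.

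The start regions are shown of the genes with the widest changes between 2-cell embryo and oocyte among those with a promoter window, 3 that rose (Taf1d, Polr2f and Taf1c) and 2 that fell (Gtf2b and Taf1a). Each is 250 bases before to 50 after an annotated transcript start from RefSeq (GRCm38.p6), read 5′ to 3′ on the gene's strand, the start further upstream where there were several. Capitals mark 6 searched motifs on either strand, none overlapping another in these genes: the TATA element TATAAA, the GC box GGGCGG, the CCAAT box CCAAT, the ETS core CCGGAAG, the YY1 element AAGATGGCG and the NRF1 element. The regions lie at chr9:15305964-15306263 (+) for Taf1d, chr15:79141075-79141374 (+) for Polr2f, chr8:119605157-119605456 (-) for Taf1c, chr3:142764997-142765296 (+) for Gtf2b and chr1:183388635-183388934 (+) for Taf1a.
Taf1d: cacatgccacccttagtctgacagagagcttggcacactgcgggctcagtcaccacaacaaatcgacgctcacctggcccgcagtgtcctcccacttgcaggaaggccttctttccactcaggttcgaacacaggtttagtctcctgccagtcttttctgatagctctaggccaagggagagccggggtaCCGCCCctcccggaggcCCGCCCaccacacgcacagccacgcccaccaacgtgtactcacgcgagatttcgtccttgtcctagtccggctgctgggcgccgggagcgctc
Polr2f: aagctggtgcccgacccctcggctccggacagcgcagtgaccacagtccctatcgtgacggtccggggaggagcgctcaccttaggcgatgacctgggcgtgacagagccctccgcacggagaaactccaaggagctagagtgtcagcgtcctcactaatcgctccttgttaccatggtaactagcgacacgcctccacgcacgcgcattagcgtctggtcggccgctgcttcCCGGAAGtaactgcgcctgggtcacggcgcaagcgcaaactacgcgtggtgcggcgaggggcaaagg
Taf1c: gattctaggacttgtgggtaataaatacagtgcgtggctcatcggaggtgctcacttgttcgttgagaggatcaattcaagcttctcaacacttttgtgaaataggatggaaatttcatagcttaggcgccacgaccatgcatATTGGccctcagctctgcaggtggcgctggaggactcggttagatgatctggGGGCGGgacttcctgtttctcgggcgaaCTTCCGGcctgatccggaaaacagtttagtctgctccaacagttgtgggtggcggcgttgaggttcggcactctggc
Gtf2b: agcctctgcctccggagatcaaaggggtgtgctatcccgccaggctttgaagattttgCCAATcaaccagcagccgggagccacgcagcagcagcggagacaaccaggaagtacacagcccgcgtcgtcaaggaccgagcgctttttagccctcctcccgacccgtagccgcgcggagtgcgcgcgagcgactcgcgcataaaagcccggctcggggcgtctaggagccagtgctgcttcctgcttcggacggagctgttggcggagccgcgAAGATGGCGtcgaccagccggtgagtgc
Taf1a: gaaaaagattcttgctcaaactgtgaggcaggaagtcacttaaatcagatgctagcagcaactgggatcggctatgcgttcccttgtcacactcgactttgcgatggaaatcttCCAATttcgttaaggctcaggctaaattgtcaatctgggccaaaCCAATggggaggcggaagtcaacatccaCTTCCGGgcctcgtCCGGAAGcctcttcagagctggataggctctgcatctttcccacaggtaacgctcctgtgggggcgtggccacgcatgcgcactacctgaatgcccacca

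Windows were at hand for 26 of the 29 genes, 33 in all, with none for Gtf2e2, Polr2d and Polr2g. The ETS core was in 33.3% of these windows, against 8.86% of all 32851 promoter windows. The GC box was in 54.5%, against 35.7%, and the YY1 element in 6.06%, against 1.4% (Gtf2b and Taf6). TATAAA was in 18.2%, against 13.6%, and CCAAT in 36.4%, against 37.4%. The NRF1 element was in none of the 33, and in 0.971% of all. The ETS core stands in the shown windows of Polr2f and Taf1c, which rose, and of Taf1a, which fell. A match is a stretch of letters, not a measured site.

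Taf15 encodes an RNA-binding protein that was named for its association with TFIID. Its only probe set, 96554_r_at, reached 35.4 at most (8-cell array 1) and averaged 9.83, 22, 16.3, 22.2 and 22.6 from oocyte to blastocyst, so that it had no test.

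The wider machinery was read from 78 genes in 6 lists. In 2-cell against 1-cell embryos 41 of the 78 rose and 13 fell (25.9% and 21.2% of all probe sets). In 1-cell embryos against oocytes 15 rose and 26 fell (17.3% and 19.8% of all), a split that became 0 and 54 with spike scaling (0.223% and 66.4% of all). In blastocysts against 8-cell embryos 9 rose and 33 fell (21.8% and 20.8% of all), or 35 and 2 with spike scaling (66.4% and 1.85% of all). The factors of RNA polymerases I and III mostly rose at the 2-cell stage: 15 of 20 rose and 0 fell in 2-cell against 1-cell embryos, among them Polr1e, a polymerase I subunit (3.41), and Ubtf, the upstream binding factor of ribosomal RNA genes (3.06). In 1-cell embryos against oocytes 2 of these 20 rose and 8 fell, and in blastocysts against 8-cell embryos 1 rose and 11 fell; with spike scaling these were 0 and 15, and 4 and 0.

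Among 13 regulators of Tbp and partners of polymerase II, 8 rose and 1 fell in 2-cell against 1-cell embryos (25.9% and 21.2% of all). Gpn1, a GTPase needed to bring polymerase II into the nucleus, averaged 2079 ± 356 in 2-cell embryos, against 194 ± 39.2 in 1-cell embryos (SD, n = 3 each) and 2428 ± 178 in oocytes (n = 4). It fell by 3.59 in 1-cell embryos against oocytes and rose by 3.35 in 2-cell embryos, and its relative Gpn3 rose by 4.37. Dr1, which represses Tbp, rose by 3.86, and Drap1, its partner, fell by 0.91. Dr1 averaged 33.4 in oocytes and 11.4 in 1-cell embryos and passed the filter through its later stages, so that its rise follows from its selection. Gpn3 averaged 18.8 in 1-cell embryos, and at such signals the sizes of both rises depend on the offset. Tbpl1, a relative of Tbp, rose by 1.01 in 1-cell embryos against oocytes (-0.11 with spike scaling) and by 1.18 in 2-cell against 1-cell embryos.

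Of 5 further TFIIH genes (kinase, helicases and the XPG nuclease), 3 fell in 1-cell embryos against oocytes (19.8% of all probe sets). In 2-cell against 1-cell embryos 3 rose (25.9% of all). Ercc3, the TFIIH translocase that opens the promoter, fell by 2.14 and then rose by 2.33, and Mnat1, which assembles the TFIIH kinase, fell by 1.61 and rose by 1.13. Cdk7, the kinase itself, had -0.16 and -0.22 and was not called. Of 19 elongation genes, 10 rose and 4 fell in 2-cell against 1-cell embryos (25.9% and 21.2% of all). Ell2, a subunit of the super elongation complex, averaged 2090 ± 511 in 2-cell embryos, against 24.5 ± 6.55 in 1-cell embryos (n = 3 each), and rose by 5.88 ± 0.26. Cdk9, the kinase that releases paused polymerase, rose by 1.84. Ell and Nelfa were among the genes with lower averages in 2-cell than in 1-cell embryos (330 against 891, and 686 against 1374).

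Mediator links activators to the polymerase. In 1-cell embryos against oocytes 6 of 14 Mediator genes rose and 1 fell (17.3% and 19.8% of all probe sets). With spike scaling these became 0 and 7 (0.223% and 66.4% of all). In 2-cell against 1-cell embryos 1 rose and 5 fell (25.9% and 21.2% of all), or 1 and 2 with spike scaling (23.6% and 10% of all). Med20 fell by 1.87 and Med14, the scaffold of the complex, rose by 2.27. Med14 averaged 118 in 2-cell embryos, against 13.6 to 27.0 in the other stages. It passed the filter through the 2-cell stage, so that its rise follows from its selection. Of 7 SAGA genes, 4 rose and 3 fell in 2-cell against 1-cell embryos (25.9% and 21.2% of all). Kat2b, an acetyltransferase, was at 3.62 and Sgf29 at -1.32. Kat2b averaged 5.65 in oocytes and 8.1 in 1-cell embryos and passed the filter through its later stages, so that its rise follows from its selection.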

How the data were processed

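Signal intensity values were used as deposited by the authors, 1 per probe set and array on a linear scale. Their software and scaling target are not given in the sources used here. Columns of other samples numbered 0. Stages were taken from the sample titles, and no 2 arrays held identical values. Probe sets were named from the platform annotation, and all 32 matched a current symbol; 6 have names that mark shared or dropped probes. The probe sets and gene lists were chosen with earlier results of these data known.

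The fit used log2(signal + 10.7), where 10.7 is the 25th percentile of the deposited values. Probe sets above 41.1 (the median) on at least 3 arrays were tested, and 66 controls were left out. The linear model had 1 mean for each stage and used the 17 arrays together (12 residual degrees of freedom) with limma 3.58.1 in R 4.3.3 (eBayes with an intensity trend). Tests were two-sided, adjusted by Benjamini and Hochberg over 8067 probe sets within each of 6 comparisons, and called at an adjusted p below 0.05. The procedure was tested on simulated data. Any probe set of the rule and any listed gene, by its brightest probe set with 1 symbol, could be named. The number of arrays limits the precision. As alternatives, 12 settings and 17 fits without 1 array were run; probe sets without a mark in the name alone was added after seeing the data.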

Additional observations from a re-analysis of the deposited data

Results flagged for a closer look

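In groups of 4 arrays (oocytes and 8-cell embryos), 1 array stood apart from the other 3 in 7 of 64 groups by Dixon's test, where chance gives about 1 in 20. Among oocytes, array 4 had 2499.5 for Polr2j (the others 1822.3 to 1891.9; ratio of gap to range 0.897), and array 2 had 2492.6 for Polr2g (1744.2 to 1815.6; 0.905). Oocyte array 3 had 339 for Polr2a 103055_r_at (259 to 272.4; 0.833) and 317 for Gtf2a2 (386.9 to 395.2; 0.894), and oocyte array 1 had 412.7 for Gtf2f2 (598.7 to 623.4; 0.883). Among 8-cell embryos, array 3 had 101.6 for Polr2i (57.9 to 62.6; 0.892), and array 4 had 608.4 for Gtf2e2 (554.2 to 562.3; 0.851).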

How the results depend on the processing

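The counts of probe sets called higher and lower stayed within 1.5 times their values in all alternatives but spike scaling. Without single arrays they ranged, higher and lower, over 5 to 8 and 12 to 14 (1-cell against oocyte), 16 to 18 and 6 to 8 (2-cell against 1-cell), 5 to 6 and 9 to 13 (8-cell against 2-cell), 3 to 5 and 12 to 14 (blastocyst against 8-cell), 13 to 13 and 5 to 6 (2-cell against oocyte) and 10 to 11 and 14 to 14 (blastocyst against oocyte). Spike scaling gave 0 higher and 22 lower, 2 lower in 2-cell against 1-cell, 0 higher in 8-cell against 2-cell, 17 higher and 1 lower, 5 higher and 14 lower, and 7 higher in blastocyst against oocyte; by its construction it moves all probe sets of a stage together. Of 186 differences it left 108 on their side of the threshold and reversed 29 that were called on either scale.

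The reversed log2 differences were, in 1-cell against oocyte, Taf6 -1.08, Taf10 -0.53, Polr2f -0.41, Polr2c -0.56, Polr2h -1.03, Gtf2a1 -0.20 and Taf11 -0.40. In 8-cell against 2-cell, Polr2l was -0.18, and -0.059 with quantile normalization, the 1 reversal outside spike scaling. In blastocyst against 8-cell they were Polr2j 0.67, Gtf2h4 1.02, Polr2a 103055_r_at 1.02, Gtf2f1 0.52, Polr2f 0.11, Taf1c 0.17, Polr2h 0.39, Polr2e 0.78, Gtf2h1 0.53, Gtf2a1 1.07, Taf11 0.76, Polr2d 0.90, Taf1b 0.55 and Tbp 0.82. In 2-cell against oocyte they were Gtf2h4 -0.20, Gtf2f2 -0.18, Gtf2f1 -0.26, Taf10 -0.17, Polr2l -0.85, Gtf2h1 -0.063 and Gtf2a1 -0.76.

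Over all tested probe sets, equal array medians gave 1612 higher and 2436 lower in 2-cell against 1-cell embryos (2090 and 1712 on the deposited scale). The replicate numbers did not pair the arrays (correlation of same-numbered arrays -0.084 to 0.125); with the replicate number as a block, 181 of 186 differences kept their side, Polr2f and Gtf2b lost the call in 8-cell against 2-cell (adjusted p = 0.0946 and 0.0666) and 17 and 7 were called in 2-cell against 1-cell. Depth is not known for these arrays; signals under 41.1 are near the low end, and differences resting on them depend on the offset.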
